A study of Mus musculus with 4 samples.

Results

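The genes of the mTOR complexes and their immediate regulators were examined in HT-22 cells, a mouse line of hippocampal origin that was immortalized for culture. The set holds 10 genes, namely Mtor, Mlst8, Rptor, Akt1s1, Rictor, Mapkap1, Tsc1, Tsc2, Rheb and Rps6kb1, of 11502 genes in the deposited expression table. They were collected by mapping the table's Ensembl transcript identifiers, without version, to gene symbols of GENCODE M21, which gave 37 of the 25822 matched transcripts. The set was chosen by earlier results of the same libraries, with Rptor in it for its higher value in PGC-1α+OGD than in Ctrl+OGD, so its values are given as a description.

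The cells were sequenced in 4 groups with 1 library each. The Ctrl cells carried a negative control lentivirus according to the study's methods, while the sample records name them wild type. The PGC-1α cells carried a lentivirus overexpressing PGC-1α, a transcriptional coactivator of mitochondrial genes, and both kinds of cells were selected with puromycin after infection. Ctrl+OGD and PGC-1α+OGD cells had 2 h of oxygen and glucose deprivation (OGD) in medium without serum or glucose under carbon dioxide and nitrogen, then 24 h of recovery in normal medium, and the other 2 groups had no OGD. In the lists of values, "with OGD" stands for Ctrl+OGD and "with both" for PGC-1α+OGD. Because each group had 1 library, differences between groups could not be checked against replicates, and neither errors nor p values are given. Poly(A) RNA was sequenced, so the values are RNA levels and say nothing of protein or of phosphorylation. In RNA from whole cultures, fewer cells of a kind and less RNA per cell cannot be told apart.

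mTOR is a serine/threonine kinase that works in a pair of complexes. In mTORC1 it is joined by mLST8, by raptor (Rptor), which recruits substrates and is needed for docking at the lysosome, and by the inhibitory subunit PRAS40 (Akt1s1). In mTORC2 it is joined by mLST8, rictor (Rictor) and mSIN1 (Mapkap1), which direct it to Akt and related kinases. The TSC complex of Tsc1 and Tsc2 restrains the small GTPase Rheb, which activates mTORC1, and the S6 kinase encoded by Rps6kb1 is a substrate through which mTORC1 raises protein synthesis. In neurons mTORC1 is known for its part in cell growth, local protein synthesis and the control of autophagy, and in several tissues it acts with PGC-1α on mitochondrial genes.

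The results turned on which transcript of a gene carried the signal, so the places where the main transcripts part are shown first. Full-length Rptor-201 (ENSMUST00000026671) spans chr11:119603149-119899407 on the plus strand of GRCm38, with 34 exons, 6594 bases and a coding sequence of 4005 bases. Rptor-202 (ENSMUST00000124401) is annotated as an incomplete coding fragment of 515 bases in 5 exons at chr11:119822947-119856298. It covers 7.81% of the bases of Rptor-201 and differs by 1 splice junction, which leaves out the 66 coding bases of exon 15 (chr11:119846358-119846423). Capitals mark exon 15 in the first sequence and the bases on either side of the junction in the second.
Rptor-201: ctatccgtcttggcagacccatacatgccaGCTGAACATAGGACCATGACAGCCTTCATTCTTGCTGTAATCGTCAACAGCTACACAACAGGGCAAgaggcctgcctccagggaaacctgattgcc
Rptor-202: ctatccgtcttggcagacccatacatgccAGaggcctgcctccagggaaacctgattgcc

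In Tsc1, Tsc1-204 and Tsc1-202 differ in their coding sequence by 15 bases at chr2:28678952-28678966 on the plus strand. Capitals mark these bases in Tsc1-204 and the junction that lacks them in Tsc1-202.
Tsc1-204: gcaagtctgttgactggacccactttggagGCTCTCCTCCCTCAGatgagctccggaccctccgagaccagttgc
Tsc1-202: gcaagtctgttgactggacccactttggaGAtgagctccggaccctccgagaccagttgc

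The short Mtor-201 ends its coding sequence of 768 bases with 63 bases (chr4:148454753-148454815, plus strand) that are not part of the coding sequence of the full Mtor-202 transcript. They are in capitals, after 30 bases that both transcripts share.
Mtor-201: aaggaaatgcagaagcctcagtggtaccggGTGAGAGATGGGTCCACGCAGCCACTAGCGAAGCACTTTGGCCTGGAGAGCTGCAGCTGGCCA

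The expression table gives 1 value per transcript and names no unit. They are treated here as FPKM, that is fragments scaled by the length of the transcript and by the mapped fragments of the library, and the level of a gene is the sum of its transcripts in the table. The column totals ran from 331892 to 353381, and the number of reads behind a value is unknown. The overexpressed gene itself, Ppargc1a, had a summed level of 0.900 FPKM in Ctrl and 35.1 in PGC-1α, and of 0.103 and 8.41 FPKM in the same cells after OGD. Of 17 neuronal markers looked for, Syp and Eno2 had transcripts in the table, with a joint level between 0.668 FPKM in PGC-1α and 3.70 in Ctrl+OGD. Rbfox3, Map2 and Tubb3 were among the 15 with none. Of 4 fibroblast markers, the collagens Col1a1 and Col1a2 had transcripts, with a joint level of 392 to 463 FPKM, and Dcn and Thy1 had none. Astrocytes, microglia and oligodendrocytes each had 1 of 4 markers in the table, with levels between 0.0239 and 4.76 FPKM.

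Rptor had by far the widest range of the 10 genes, and Akt1s1 came next. The highest value of a gene was 19.6 times its lowest in Rptor, 1.78 times in Akt1s1 and 1.10 to 1.45 times in the other 8 genes. On the scale of log2(FPKM + 1), which understates differences of low genes, the range of Rptor over the libraries was 2.75, above that of 99.7% of the 10604 genes averaging 1 FPKM or more. Because Rptor was placed in the set for its difference between PGC-1α+OGD and Ctrl+OGD, a high rank follows in part from that choice. The median range of the 10 genes was 0.26, beside 0.41 over all those genes.

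**Figure D1:**
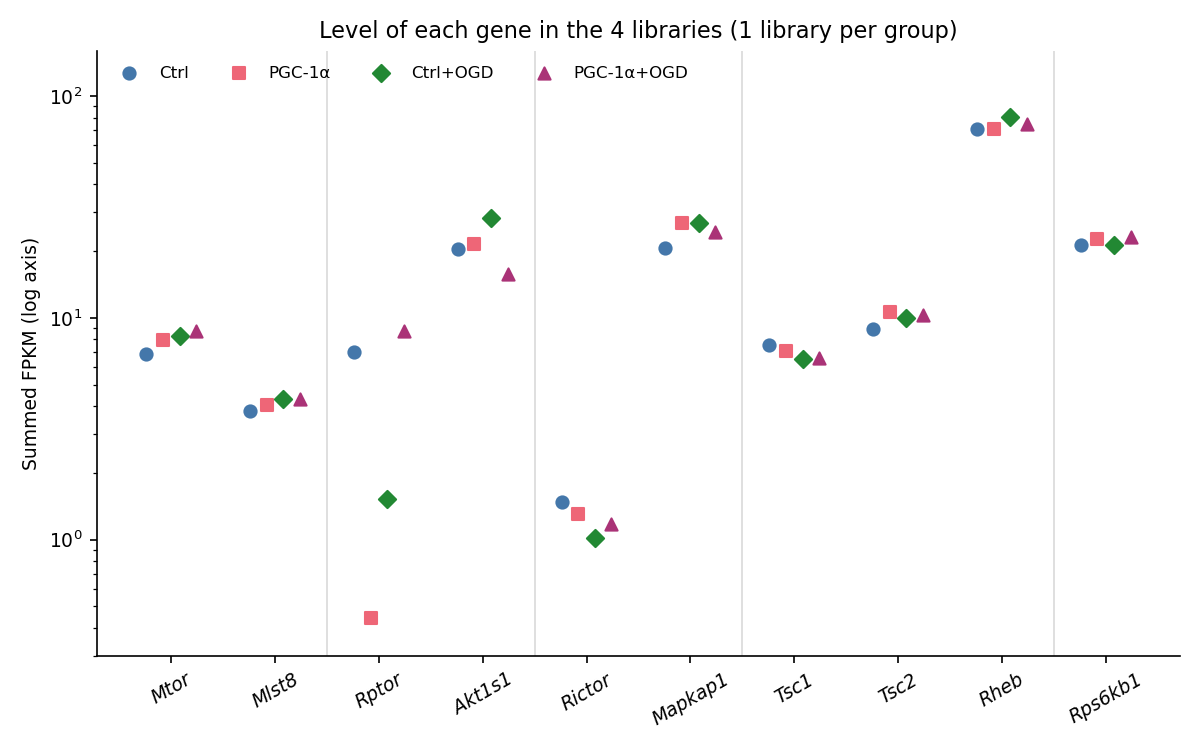
Summed FPKM of each gene (log axis) in the 4 libraries, 1 point per library, ordered by role: shared core, mTORC1, mTORC2, TSC and Rheb, substrate. The 4 points span 1.45-fold or less except in Akt1s1 (15.8 to 28.1 FPKM) and in Rptor, which had 6.99 FPKM in Ctrl and 8.68 in PGC-1α+OGD but 0.444 and 1.53 in the remaining libraries.

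The shared core of both complexes differed little between libraries. Mtor (ENSMUSG00000028991, chr4:148448611-148557683) had 6.87 FPKM in Ctrl, 7.96 with PGC-1α, 8.24 with OGD and 8.71 with both. Mlst8 (ENSMUSG00000024142, chr17:24473551-24479078, minus strand), the small WD-repeat subunit that binds the kinase, had 3.80, 4.06, 4.32 and 4.32 FPKM in the same order. Ctrl was the lowest library for both genes, and the highest value exceeded it by 26.7% for Mtor and by 13.9% for Mlst8.

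Rptor (ENSMUSG00000025583, chr11:119602905-119899576, plus strand) alternated between high and low libraries. Its summed level was 6.99 FPKM in Ctrl, 0.444 with PGC-1α, 1.53 with OGD and 8.68 with both. The high values were thus found in the cells with neither PGC-1α nor OGD and in the cells with both, and the low ones in the cells with 1 of them. PGC-1α vs Ctrl gave a log2 fold change of -2.47 and PGC-1α+OGD vs Ctrl+OGD one of 1.94, a pair of comparisons with no library in common.

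The value of Rptor in Ctrl+OGD came from the fragment alone. Rptor-201 had 6.99 FPKM in Ctrl, 0.444 in PGC-1α and 8.68 in PGC-1α+OGD and was listed at 0 in Ctrl+OGD, whereas Rptor-202 had 1.53 FPKM in Ctrl+OGD and was listed at 0 in the other 3 libraries. An FPKM value divides by transcript length, so the same number of fragments weighs more on a short transcript. With each FPKM multiplied by transcript length in kilobases, a length-weighted level that is proportional to the fragments assigned, Rptor had 46.1 in Ctrl, 2.93 with PGC-1α, 0.788 with OGD and 57.3 with both. On this scale Ctrl+OGD was the lowest library, 58.5-fold below Ctrl and 72.7-fold below PGC-1α+OGD, and PGC-1α was 15.7-fold below Ctrl. The order of the low libraries therefore depended on the scale, while the split between high and low libraries did not.

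GENCODE M21 lists 12 transcripts of Rptor, of which the other 10 had no row in the table and are not analysed here. They are 4 targets of nonsense-mediated decay and 6 transcripts with a retained intron, and 1 of them, Rptor-211 with 33 exons, shares 90.5% of the bases of Rptor-201. The lowest maximum of a transcript over the libraries was 0.50 FPKM, and 25740 of the 25822 matched ones are of the protein-coding type. The antisense gene Rptoros, which shares exonic bases with Rptor, had no transcript in the table either. Among the 6405 genes with several transcripts and a mean of at least 1 FPKM, the transcript with the highest mean was listed at 0 in at least 1 library for 3.72%.

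Akt1s1 (ENSMUSG00000011096, chr7:44848991-44855421, plus strand), which encodes the inhibitory subunit PRAS40, was the other gene with a wider range. Its summed level was 20.5 FPKM in Ctrl, 21.5 with PGC-1α, 28.1 with OGD and 15.8 with both, highest after OGD in control cells and lowest after OGD in PGC-1α cells. PGC-1α vs Ctrl gave a log2 fold change of 0.06 and PGC-1α+OGD vs Ctrl+OGD one of -0.79, where it lay on the other side of 0 from Rptor. Its length-weighted levels were 30.7, 27.1, 36.8 and 19.3, which kept the same highest and lowest libraries. Some of its exonic bases are shared with Tbc1d17 on the opposite strand, which had at most 3.67 FPKM, and whether the values were made with the strand of the reads is not given in the sources used here.

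The mTORC2 subunits had no value past 1.5-fold. Rictor (ENSMUSG00000050310, chr15:6708379-6800401), the scaffold that defines mTORC2, was the least abundant of the 10 genes outside the low libraries of Rptor, with 1.48 FPKM in Ctrl, 1.31 with PGC-1α, 1.02 with OGD and 1.18 with both. Mapkap1 (ENSMUSG00000038696, chr2:34406771-34624950), which encodes the mSIN1 subunit, had 20.6, 26.6, 26.7 and 24.4 FPKM in the same order, with Ctrl lowest. On the FPKM scale Rptor was above Rictor in all libraries but PGC-1α, while in Ctrl+OGD the length-weighted levels stood the other way, at 0.788 for Rptor and 9.45 for Rictor.

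The TSC genes and Rheb were close to level. Tsc1 (ENSMUSG00000026812, chr2:28641228-28691167), encoding the stabilizing subunit hamartin, had 7.55 FPKM in Ctrl, 7.08 with PGC-1α, 6.50 with OGD and 6.57 with both. Tsc2 (ENSMUSG00000002496, chr17:24595816-24632630, minus strand), encoding tuberin with the GTPase-activating domain for Rheb, had 8.89, 10.6, 10.0 and 10.3 FPKM. Rheb (ENSMUSG00000028945, chr5:24802823-24842624, minus strand) was the most abundant gene of the set, with 70.7, 70.8, 80.7 and 74.5 FPKM. Both TSC genes stayed within a span of 1.16 to 1.19 times their lowest value, and Rheb within 1.14 times.

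Rps6kb1 (ENSMUSG00000020516, chr11:86498871-86544805, minus strand), the S6 kinase gene, had the narrowest range of the 10. Its level was 21.4 FPKM in Ctrl, 22.7 with PGC-1α, 21.2 with OGD and 23.3 with both. Only 5.02% of the tested genes had a smaller range. Ordered by level without Rptor, Rheb was followed by Rps6kb1, Mapkap1 and Akt1s1, whose values over the libraries overlapped, then by Tsc2, then by Mtor and Tsc1, whose values also overlapped, then by Mlst8 and Rictor. Rptor, at 0.444 to 8.68 FPKM, overlapped with Mtor, Tsc1, Mlst8 and Rictor and has no place in this order. With 1 library per group, only overlap of the 4 values can be given, and neighbours in this order cannot be told apart by replicate spread.

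The question put by the design was what PGC-1α does to expression in resting cells and after OGD, and what OGD does in each kind of cell. Of the 4 comparisons, those of PGC-1α, without and with OGD, have no library in common. The same holds for those of OGD, in control cells and in cells with PGC-1α. Any other pair of comparisons shares a library. Differences of at least 1.5-fold were counted, which is the fold criterion of the study without its p value. The share of all tested genes past that fold is given as background, and nothing is read from the counts of a set that was chosen with these values known.

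In resting cells, PGC-1α vs Ctrl, Rptor was the 1 gene past 1.5-fold and was lower, against a background of 10.5% of genes past 1.5-fold in either direction, 4.91% higher and 5.63% lower. The median log2 fold change of the 10 genes was 0.07, beside -0.03 for all 10604 tested genes. Apart from Rptor, the values ran from -0.10 for Rictor to 0.35 for Mapkap1, with Tsc2 at 0.23 and Mtor at 0.19.

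After OGD, PGC-1α+OGD vs Ctrl+OGD, Rptor was higher (log2 fold change 1.94) and Akt1s1 lower (-0.79), against a background of 6.9% of genes past 1.5-fold, 3.08% higher and 3.82% lower. Rptor is a subunit that brings substrates to the kinase and Akt1s1 an inhibitor of the same complex. The remaining 8 genes lay between -0.13 for Mapkap1 and 0.13 for Rps6kb1. The median was 0.02 for the 10 genes and -0.01 for all tested genes.

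In control cells, Ctrl+OGD vs Ctrl, Rptor was lower (-1.66) and no other gene of the set passed 1.5-fold, against a background of 13.9% of genes, 7.71% lower. Dividing each library by its total changed the split of all genes past 1.5-fold in this comparison from 657 higher and 818 lower to 498 higher and 1099 lower, and left Rptor as the 1 gene of the set. Akt1s1 was nearest to the threshold on the other side, at 0.44, followed by Mapkap1 at 0.36 and Mtor at 0.23. Rictor was at -0.30 and Tsc1 at -0.19, and the median was 0.15 for the set and -0.02 for all tested genes.

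In cells with PGC-1α, PGC-1α+OGD vs PGC-1α, Rptor was higher (2.75) and no gene of the set was past 1.5-fold lower, against a background of 9.03% of genes, 3.82% higher. Akt1s1 was at -0.42 and the other 8 genes lay between -0.12 for Mapkap1 and 0.12 for Mtor. The median was 0.00 for the set and 0.00 for all tested genes. Over the 4 comparisons, which share libraries, 8 of the 10 genes passed 1.5-fold in none, as did 75.3% of all tested genes.

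**Figure D2:**
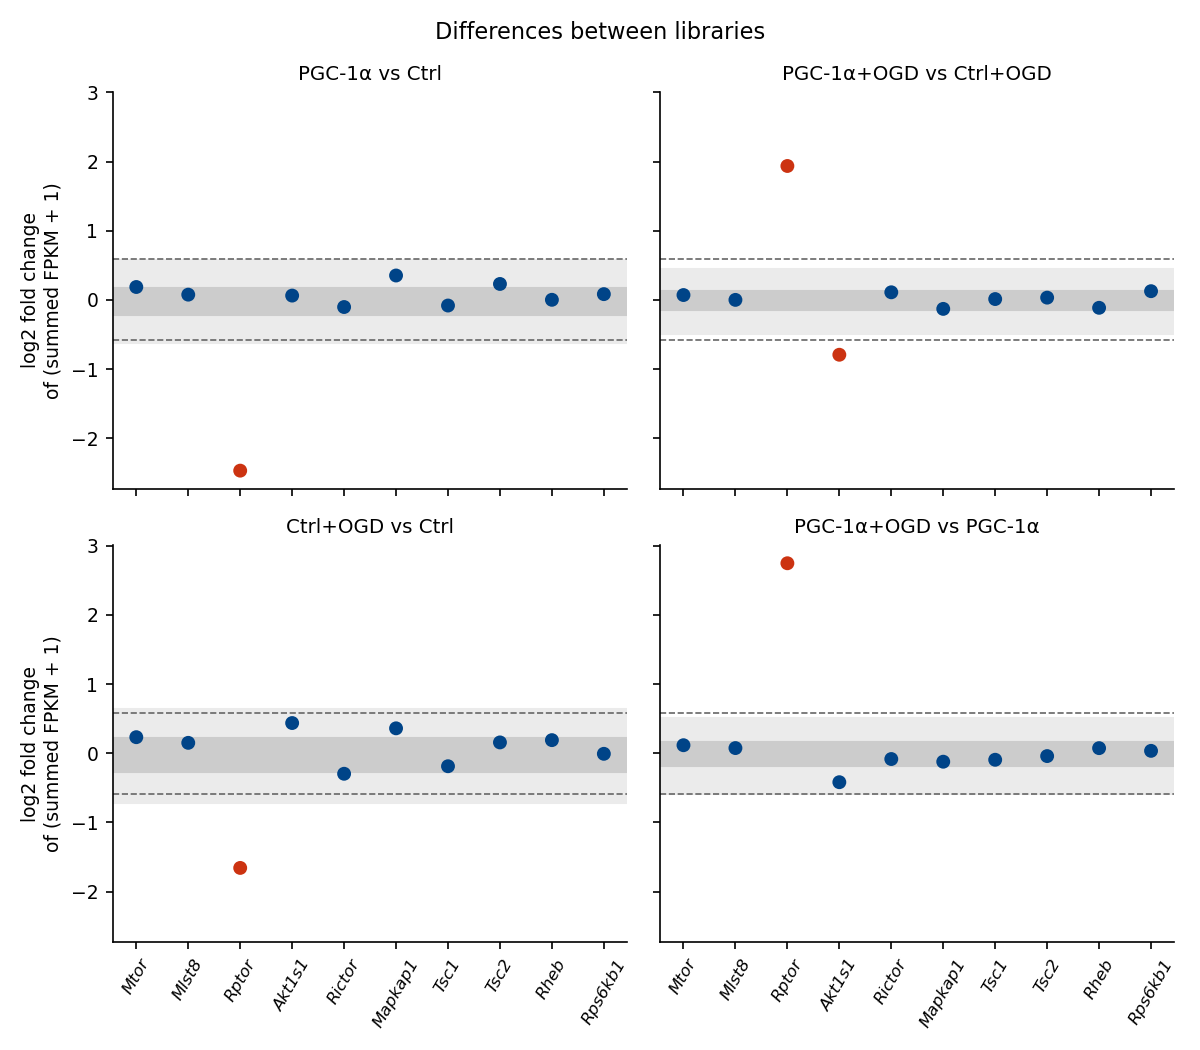
Log2 fold change of summed FPKM + 1 for each gene in the 4 comparisons, with the middle 50% (dark band) and middle 90% (light band) of all 10604 tested genes and the 1.5-fold threshold as dashed lines. Red points are past the threshold: Rptor in all panels (-2.47, 1.94, -1.66 and 2.75) and Akt1s1 in PGC-1α+OGD vs Ctrl+OGD (-0.79).

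The PGC-1α comparisons put Rptor on opposite sides of 0 without and with OGD. The log2 fold change with OGD minus that without was 4.40 for Rptor, -0.86 for Akt1s1 and -0.48 for Mapkap1, and between -0.20 and 0.21 for the other 7 genes. A total of 100 genes, 0.943% of those tested, were past 1.5-fold in opposite directions in these comparisons. By the length-weighted sum the values of Rptor were -2.94 without and 3.81 with OGD. With 1 library per group this difference was not tested.

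The split of a gene among its transcripts also differed between libraries. Of the 7 genes with several transcripts in the table, Mtor and Rps6kb1 had the same leading transcript in all 4 libraries, and Rptor, Akt1s1, Mapkap1, Tsc1 and Tsc2 did not. Among all genes with several transcripts, 33.5% changed their leading transcript between libraries. Values per transcript are estimates from reads that the transcripts share, and 9 of the 37 transcripts, from Rptor, Akt1s1 and Tsc2, were listed at 0 in at least 1 library. When the transcript of highest mean stood for each gene, 2, 2, 2 and 3 genes of the set were past 1.5-fold in the 4 comparisons in the order above, against backgrounds of 17.1%, 13.1%, 20% and 16.2%. The added genes were Tsc2 in PGC-1α vs Ctrl and in Ctrl+OGD vs Ctrl, and Akt1s1 and Tsc1 in PGC-1α+OGD vs PGC-1α. Those of Tsc2 rest on a near tie in the mean, in which Tsc2-219, listed at 0 in Ctrl, stood narrowly above Tsc2-217. By Tsc2-217, listed at 0 in Ctrl+OGD, the PGC-1α vs Ctrl value was -0.28 and Ctrl+OGD was the lower library of the other comparison. Tsc2-221 had a mean close to both and a value above 0 in every library. By it, PGC-1α vs Ctrl was at -0.42 and Ctrl+OGD vs Ctrl at -0.05, short of 1.5-fold.

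**Figure D3:**
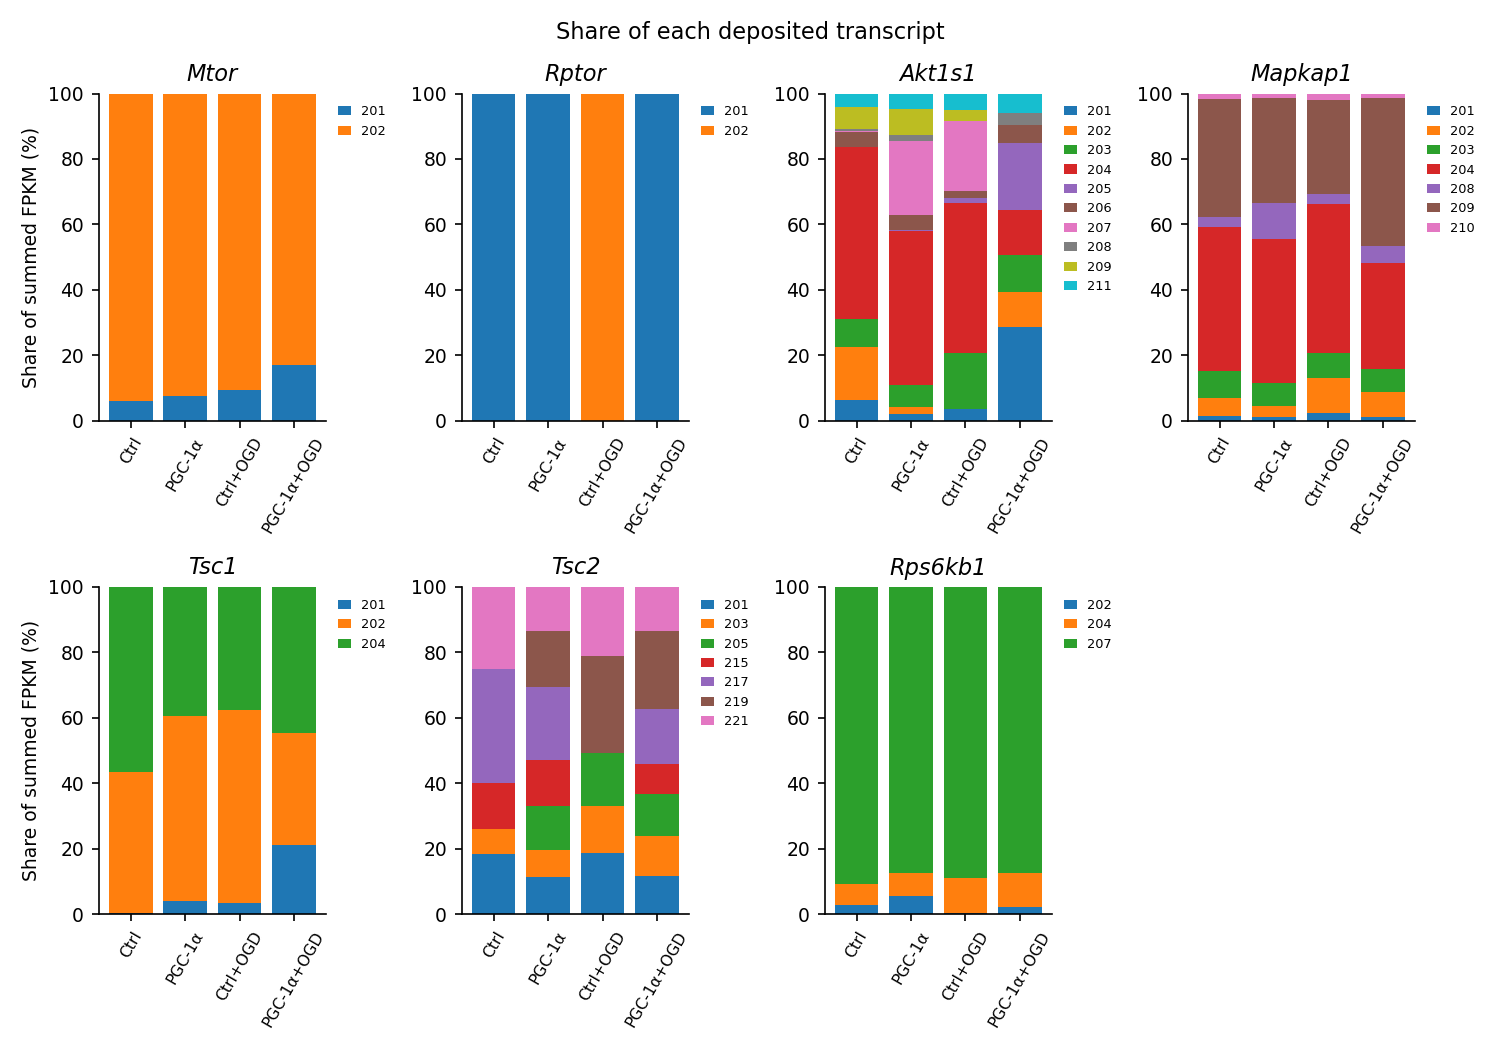
Share of each transcript in the summed FPKM of its gene (%), by library, for the 7 genes with several transcripts in the table. Rptor was wholly Rptor-202 in Ctrl+OGD and wholly Rptor-201 in the other libraries, and the leading transcript of Akt1s1, Mapkap1, Tsc1 and Tsc2 also differed between libraries.

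For Mtor, the full-length Mtor-202 (8564 bases, 58 exons) had 6.46 FPKM in Ctrl, 7.37 with PGC-1α, 7.48 with OGD and 7.22 with both. The short Mtor-201 (1003 bases, 5 exons), with the coding end printed above, had 0.412, 0.597, 0.763 and 1.49 FPKM. The short form made up 5.99% of Mtor in Ctrl and 17.1% in PGC-1α+OGD, so much of the difference in the sum between these libraries was in the short form. The length-weighted levels of Mtor were 55.7, 63.7, 64.8 and 63.3, with Ctrl again lowest.

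Akt1s1 had 10 transcripts in the table, 4 with a complete coding sequence. Akt1s1-204, the leading one in 3 libraries, had 10.8 FPKM in Ctrl, 10.1 with PGC-1α, 12.9 with OGD and 2.17 with both. Akt1s1-201 led in PGC-1α+OGD with 4.54 FPKM, beside 1.31, 0.421 and 1.02 in the others. Akt1s1-207, an incomplete form, had 0.0257 FPKM in Ctrl, 4.83 with PGC-1α, 6.0 with OGD and 0.0355 with both, so it was low where Rptor was high. Akt1s1-205, also incomplete, had 3.28 FPKM in PGC-1α+OGD and at most 0.393 in the others. Akt1s1-201 and Akt1s1-202 carry the same coding sequence of 771 bases, and together had 4.61 FPKM in Ctrl, 0.927 with PGC-1α, 1.02 with OGD and 6.21 with both. This pair was high and low in the same libraries as Rptor, while the sum of all 10 transcripts was not.

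Mapkap1-204, annotated without a complete coding sequence, led in Ctrl, PGC-1α and Ctrl+OGD with 9.11, 11.7 and 12.2 FPKM and had 7.88 in PGC-1α+OGD. Mapkap1-209 led in PGC-1α+OGD with 11.0 FPKM, beside 7.48, 8.57 and 7.65. Mapkap1-203 and Mapkap1-209 share their coding sequence of 1566 bases, which had 9.17 FPKM in Ctrl, 10.4 with PGC-1α, 9.63 with OGD and 12.8 with both. The highest level of this mSIN1 reading frame was in PGC-1α+OGD, which was also the highest library by the length-weighted level of the gene (57.2) but not by its summed FPKM.

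Tsc1-204, with the 15 bases shown above, had 4.27 FPKM in Ctrl, 2.79 with PGC-1α, 2.44 with OGD and 2.93 with both. Tsc1-202, without them, had 3.25, 4.01, 3.83 and 2.24 FPKM, so it led in PGC-1α and Ctrl+OGD. Tsc1-201 has the same coding sequence as Tsc1-204 and had 1.39 FPKM in PGC-1α+OGD and at most 0.282 in the others. Together the transcripts with the 15 bases had 4.30, 3.07, 2.67 and 4.33 FPKM, higher in Ctrl and PGC-1α+OGD than in the other libraries.

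Tsc2 was spread over 7 transcripts. Tsc2-217, which has the longest coding sequence of the 7 with 5424 bases, had 3.10 FPKM in Ctrl, 2.37 in PGC-1α and 1.74 in PGC-1α+OGD and was listed at 0 in Ctrl+OGD. Tsc2-219, a fragment of 798 bases in 5 exons at the end of the gene, was listed at 0 in Ctrl and had 1.81, 2.96 and 2.44 FPKM in the others. Tsc2-205 was likewise listed at 0 in Ctrl and had 1.33 to 1.64 FPKM elsewhere, and Tsc2-215 was listed at 0 in Ctrl+OGD. The sum of the gene stayed between 8.89 and 10.6 FPKM while these transcripts differed. Tsc2-201 and Tsc2-205 carry the same coding sequence of 5226 bases. Together they had 1.63 FPKM in Ctrl, 2.61 with PGC-1α, 3.52 with OGD and 2.52 with both, lowest in Ctrl, unlike Rptor. Some exonic bases of Tsc2 are shared with Pkd1 on the opposite strand, which had 5.32 to 7.80 FPKM.

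The remaining genes had 1 dominant transcript. Rps6kb1-207 had 19.4 FPKM in Ctrl, 19.8 with PGC-1α, 18.8 with OGD and 20.4 with both, 87.3% to 90.9% of the gene. Mlst8, Rictor and Rheb had 1 transcript each, so their sums are that transcript's values. Some exonic bases of Mlst8 and Rps6kb1 are also shared with genes on the opposite strand, Bricd5 and Rnft1.

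To place the Rptor pattern, the 5 genes with the smallest Euclidean distance to it over the 4 libraries were listed, each gene centred on its own mean of log2(FPKM + 1). They were Hltf (distance 0.55), a DNA helicase and ubiquitin ligase gene, Tapt1 (0.71), Sass6 (0.83), a centriole assembly gene, Tsku (0.93) and Setd5 (1.01). Hltf had 3.82 FPKM in Ctrl, 0.0786 with PGC-1α, 0.223 with OGD and 3.52 with both. Setd5 had 25.01, 8.05, 7.71 and 22.0 FPKM, so high and low libraries were the same at a higher level. These genes were chosen for this likeness over 4 points, and no gene of the mTOR set or pathway list was among them.

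**Figure D4:**
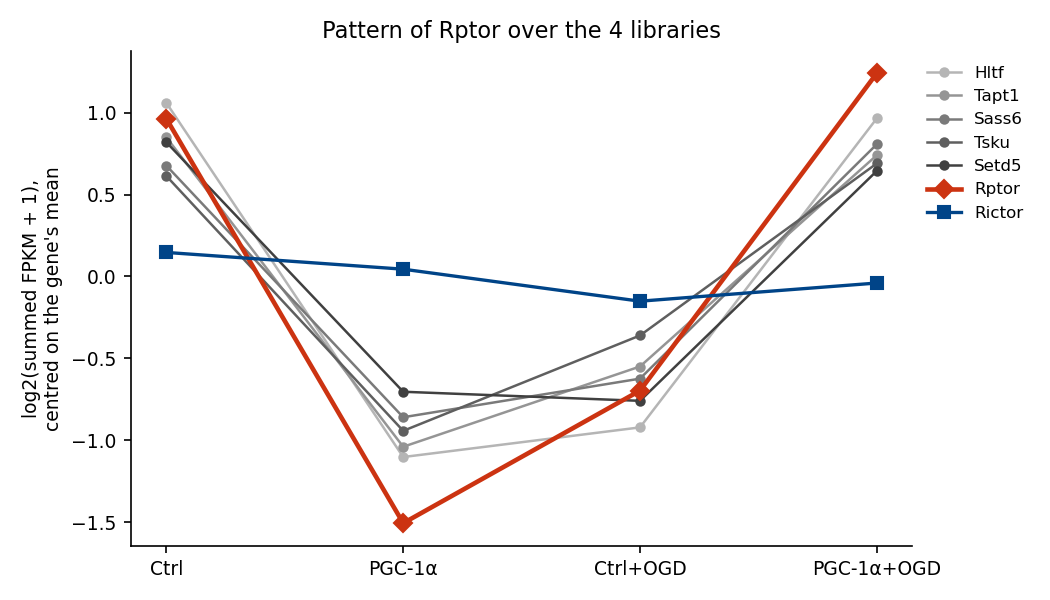
Log2(summed FPKM + 1), centred on each gene's mean over the 4 libraries, for Rptor, the 5 genes nearest to it and Rictor for comparison. Rptor spans 2.75 from PGC-1α to PGC-1α+OGD and the 5 nearest genes share its high and low libraries, while Rictor spans 0.30.

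PGC-1α works through other factors, among them NRF1 and the estrogen-related receptors, and TFEB of the lysosomal program binds E-boxes, so the 250 bases before the RefSeq start of each gene were searched for their core letters. The motifs were GCATGCG for NRF1, AAGGTCA for the estrogen-related receptors and CACGTG for the E-box, on both strands, and no motif contains another. They occurred in 3.02%, 4.08% and 6.02% of 32851 such windows. NRF1 letters were found for Mapkap1 and Rps6kb1 and the E-box for Rheb, no window held the receptor letters, and 7 of the 10 genes had no match in any window. The windows of Rptor (chr11:119602655-119602904, plus strand) and Rps6kb1 (chr11:86544808-86545057, minus strand) of GRCm38.p6 are shown because they belong to the genes with the widest and the narrowest range. Capitals mark the NRF1 letters, and a match is a match of letters only.
Rptor: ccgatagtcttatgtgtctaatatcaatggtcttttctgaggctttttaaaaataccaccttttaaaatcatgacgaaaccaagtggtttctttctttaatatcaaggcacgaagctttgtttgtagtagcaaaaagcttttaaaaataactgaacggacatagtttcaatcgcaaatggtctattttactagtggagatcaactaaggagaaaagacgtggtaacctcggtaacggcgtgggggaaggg
Rps6kb1: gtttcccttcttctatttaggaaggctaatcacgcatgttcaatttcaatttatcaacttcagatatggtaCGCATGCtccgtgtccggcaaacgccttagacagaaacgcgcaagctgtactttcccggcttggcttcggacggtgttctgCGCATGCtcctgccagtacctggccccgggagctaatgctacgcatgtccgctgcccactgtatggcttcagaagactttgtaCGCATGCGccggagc

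The Rptor window held none of the motifs and had 37.6% G and C, and it ends 244 bases before the start of Rptor-201. The Akt1s1 window (chr7:44850122-44850371, plus strand) lies after the starts of its leading transcripts, Akt1s1-204 and Akt1s1-201. The bases before those starts were thus not searched. In Rps6kb1 the NRF1 letters began 179, 98, 15 and 14 bases before the start, the last pair overlapping on opposite strands. On the scale of log2(FPKM + 1), Rps6kb1 had the smallest range of the set, 0.13. Mapkap1, the other gene with NRF1 letters, had the widest after Rptor and Akt1s1, 0.36. A link between the letters and the range was not tested.

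The wider pathway was followed with a list of 67 further genes, of which 60 had transcripts in the table and 58 had a mean of at least 1 FPKM. In PGC-1α vs Ctrl, 1 of the 58 was lower and 0 were higher, beside backgrounds of 5.63% and 4.91%, and the median log2 fold change was -0.05, beside -0.03 over all tested genes. The lower gene was Sesn2, a leucine sensor and stress-induced inhibitor of mTORC1, with 23.8 FPKM in Ctrl and 14.5 in PGC-1α (log2 fold change -0.68). In PGC-1α+OGD vs Ctrl+OGD, 2 were lower and 0 were higher, beside backgrounds of 3.82% and 3.08%. These were Ndrg1, whose protein is phosphorylated by SGK1 downstream of mTORC2, at 25.6 FPKM beside 50.5 (-0.95), and Rps6kb2, the other S6 kinase gene, at 1.28 beside 2.72 (-0.70). With its most abundant transcript in place of the sum, Rps6kb2 was at -0.38 and no longer counted. No gene of the list passed 1.5-fold in the same direction in both comparisons.

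OGD in control cells, Ctrl+OGD vs Ctrl, had 5 of the 58 genes higher and 5 lower, beside backgrounds of 6.2% and 7.71%. The highest were Eif4g1, the scaffold of translation initiation, at 125 FPKM beside 75.4 (0.72), Lamtor1, which anchors the Ragulator at the lysosome, at 58.3 beside 35.9 (0.68), and Sec13, a subunit of GATOR2, at 55.7 beside 35.8 (0.62). The lowest were Pdcd4, an inhibitor of translation that S6 kinase marks for degradation, at 22.4 beside 47.2 (-1.04), Sesn3, a sestrin, at 1.48 beside 2.83 (-0.62), and Poldip3, from the substrate and translation group of the list, at 17.6 beside 27.3 (-0.61). Pdcd4 was at -0.49, short of 1.5-fold, by its most abundant transcript. The counts moved with the scaling, to 2 higher and 6 lower with each library divided by its total and to 5 higher and 2 lower with median ratio scaling.

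In PGC-1α+OGD vs PGC-1α, 4 genes of the list were higher and 2 lower, beside backgrounds of 3.82% and 5.22%. Eif4g1 was again the highest, at 116 FPKM beside 58.6 (0.97), followed by Ddit4, the stress-induced inhibitor REDD1, at 8.63 beside 4.43 (0.83) and Eif4e, the cap-binding factor, at 32.2 beside 17.8 (0.82). Ndrg1 was lower at 25.6 FPKM beside 57.5 (-1.13), as was Rps6kb2 at 1.28 beside 2.50 (-0.61). The latter value was -0.06 with the most abundant transcript of Rps6kb2 in place of the sum. Over the 4 comparisons, the largest log2 fold change of the list by summed FPKM was -1.13 for Ndrg1. The list's median was -0.03 in PGC-1α+OGD vs Ctrl+OGD, 0.01 in Ctrl+OGD vs Ctrl and -0.01 here, beside -0.01, -0.02 and 0.00 over all tested genes.

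**Figure D5:**
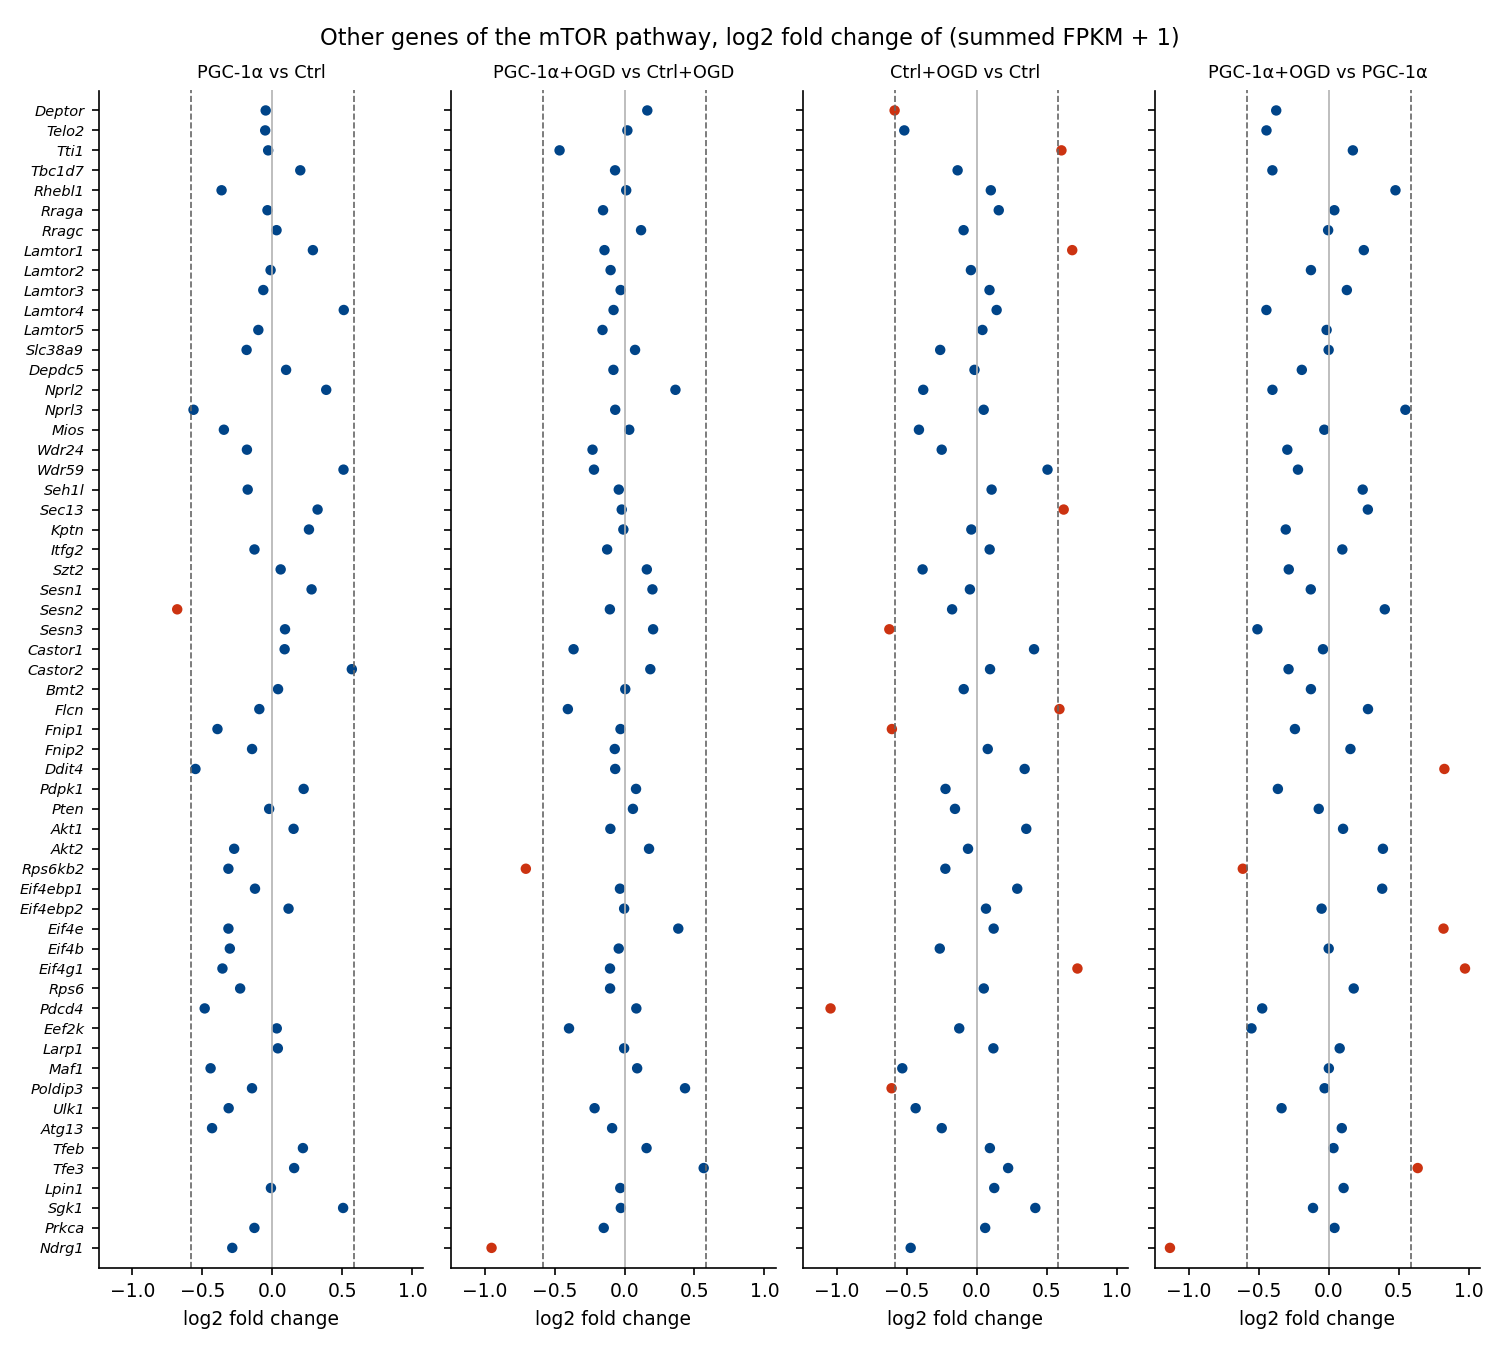
Log2 fold change of summed FPKM + 1 for the 58 tested genes of the pathway list in the 4 comparisons, with dashed lines at 1.5-fold and red points past them. The points past the lines number 1 and 2 in the PGC-1α comparisons and 10 and 6 in the OGD comparisons, and all values lie between -1.13 and 0.97.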

How the data were processed

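Per the labels and the study's methods, total RNA of HT-22 cells was poly(A)-enriched, made into stranded libraries and sequenced from both ends, and the authors aligned the reads to GRCm38 with HISAT2 2.1.0, the version in the submitters' processing notes. The deposited table holds 25889 transcripts and 4 columns. Its unit is not named: the deposited values were taken to be FPKM, because they are never negative and the column totals differ. The quantifier, its annotation and its strand setting are not given in the sources used here. For 1092 genes with 1 annotated transcript, a range of sizes of a whole-read step was tried in each library. At the best size, 31.1% to 36.1% of low values lay within 0.1 of whole-read steps. Reads could thus not be recovered, depth is unknown and no interval is given.

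Identifiers without version matched GENCODE M21 for 25822 transcripts (99.7%), 24680 of them with the same version, and 67 were left out. Transcripts were summed per gene. Fold changes are differences of log2(FPKM + 1) among 10604 genes averaging 1 FPKM or more, counted at 1.5-fold. With 1 library per group no test was run. Length-weighted levels are FPKM times transcript length in kilobases. For fold changes by the length-weighted sum, this level was divided by the mean length of the gene's transcripts in kilobases before 1 was added. Sequences came from GRCm38 and, for promoters, from RefSeq (GRCm38.p6), where all 10 genes had a window.

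The members and lists were chosen with earlier results of these data known. Named are all 10 genes, Ppargc1a, up to 3 pathway genes furthest past 1.5-fold each way per comparison or past it the same way in both PGC-1α comparisons, and the 5 genes nearest to Rptor; others named share exons with them or are markers. The alternatives were another gene value (highest transcript or length-weighted sum), pseudocount, filter, scaling or fold. pandas 2.3.3, numpy 2.4.6 and matplotlib 3.10.9 were run under Python 3.11.15, and the computation was tested on simulated data.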

Additional observations from a re-analysis of the deposited data

Results flagged for a closer look

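The value of Rptor was lower with PGC-1α than without it in resting cells and higher with PGC-1α after OGD. On the log2(FPKM + 1) scale the summed level differed by -2.47 between PGC-1α and Ctrl and by 1.94 between PGC-1α+OGD and Ctrl+OGD, and the difference of these values was 4.40. By the length-weighted sum they were -2.94 and 3.81. Rptor-202 was listed at 0 in both resting libraries, so there only the scale against the added 1 changed. With 1 library per group the difference was not tested. In Ctrl+OGD the value rests on the 515-base fragment Rptor-202, and Rptor-201 was listed at 0 there.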

How the results depend on the processing

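No paired analysis was possible because each group had 1 library, and for the same reason no replicate could be left out. Over the alternatives, 383 values of single genes of the set kept their side of the threshold, 4 crossed 1.5-fold with the highest transcript and 1 was lost as the threshold rose to 2-fold. Many of the 383 could not change. The filters leave a fold change as it is, and a gene short of 1.5-fold cannot pass 2-fold. Mlst8, Rictor and Rheb, with 1 transcript each, have the same value by all ways of forming the gene value. No value past 1.5-fold turned its direction, while smaller ones could change sign, such as Tsc1 in PGC-1α vs Ctrl (-0.08, and 0.24 by its highest transcript). With the transcript of highest mean in place of the sum, the genes of the set past the fold numbered 2 in PGC-1α vs Ctrl, 2 in Ctrl+OGD vs Ctrl and, between PGC-1α+OGD and PGC-1α, 3, the added ones being Tsc2 in the first pair, by a near tie of its transcripts, and Akt1s1 (-1.81) and Tsc1 (-0.63) in the last. A mean of at least 5 FPKM removes Rptor, Mlst8 and Rictor from the genes compared, by its construction, which left 0, 1, 0 and 0 genes past the fold in the order of the report. At 2-fold, Akt1s1 (-0.79) was no longer counted and 1 gene remained in PGC-1α+OGD vs Ctrl+OGD.

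For the pathway list, PGC-1α vs Ctrl gave 2 higher with the highest transcript or pseudocounts of 0.1 and 0.01, and 1 with the length-weighted sum or median ratio scaling. It gave 2 lower with the highest transcript, the length-weighted sum or total scaling, 3 with either pseudocount, and 0 at 2-fold. PGC-1α+OGD vs Ctrl+OGD gave 2 higher with the highest transcript and 1 with the length-weighted sum, either pseudocount or total scaling, and 7 lower with the highest transcript, 1 at a mean of at least 5 and 0 at 2-fold. Ctrl+OGD vs Ctrl gave 8 higher with the highest transcript, 2 with total scaling, 3 with upper quartile scaling and 0 at 2-fold, and 2 lower with median ratio scaling and 1 at 2-fold. PGC-1α+OGD vs PGC-1α gave 0 higher at 2-fold, and 6 lower with the highest transcript, 5 and 6 with pseudocounts of 0.1 and 0.01, and 1 at a mean of at least 5 or at 2-fold. The cause was not tested. Over all genes, the highest transcript raised the counts past 1.5-fold from 1118, 732, 1475 and 958 to 1785, 1364, 2087 and 1690.

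By the length-weighted sum, the value of Rptor moved from 1.94 to 3.81 (PGC-1α+OGD vs Ctrl+OGD) and from -1.66 to -3.51 (Ctrl+OGD vs Ctrl). Depth is unknown, so low values such as those of Rptor in PGC-1α and Ctrl+OGD have no stated precision.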
